A study of Mus musculus with 11 samples.

Results

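The genes described here are those of the mitochondrial respiratory chain, the mitochondrial ribosome, the protein import machinery and the mitochondrial carrier family that stand in a table of genes compared between Cpt1a-deficient and Cpt1a-proficient mammary tumor cells. They were chosen by name, as the protein-coding genes of the table whose symbols begin with Nduf, Sdha to Sdhd, Uqc, Cox and a digit, Atp5, Mrpl or Mrps and a digit, Timm, Tomm or Slc25a. The rule found 68 genes among the 4056 protein-coding genes and 4461 genes of all kinds in the table, and 67 of the 68 passed the filter on low counts. The GENCODE annotation of the mouse genome holds 261 protein-coding genes with such names, so 26.1% of them stand in the table, against 18.5% of all 21951 annotated protein-coding genes. Both shares count annotated genes whether or not these cells express them, so they do not compare shares of expressed genes. The gene identifier of Mrpl33, a listed member, was not found in this annotation. The other annotated members were not analysed here.

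RNA was sequenced from 6 cell lines, each derived from the mammary tumor of a female MMTV-NIC mouse at 8 weeks after palpation of the tumor, on an FVB/N background. In all of them the MMTV promoter drives 1 transcript for activated ErbB2 (Neu) and Cre recombinase in the mammary epithelium. The lines KO_1922, KO_1925, KO_2768 and KO_4258 also carried both conditional Cpt1a alleles, which that Cre deletes (NIC/Cpt1a L/L), and the lines WT_5257 and WT_8905 carried the transgene with wild-type Cpt1a (NIC/Cpt1a +/+). The cells were untreated and grown in Complete Media. Each line had duplicate libraries except KO_2768, of which 1 library was used, giving 7 L/L and 4 +/+ libraries. The genotype field of the labels was followed, since the sample titles word the allele status the other way round. Cpt1a, whose deletion defines the groups, is an enzyme needed for long-chain fatty acids to enter mitochondria. It was not analysed here, so these values hold no check of the labels by the targeted gene.

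Library totals, recovered from count, gene length and FPKM, ranged from 18247312 to 25386785 reads in the L/L libraries and from 15199378 to 17372643 in the +/+ libraries. The members drew between 0.566% and 0.697% of the reads of an L/L library, 0.827% and 0.828% of the WT_5257 libraries and 0.635% and 0.645% of the WT_8905 libraries, so WT_8905 lay within the range of the L/L libraries. Duplicate libraries were summed, and the line was the replicate. Values are given below in the order KO_1922, KO_1925, KO_2768 and KO_4258, then WT_5257 and WT_8905. CPM, read counts scaled to a common library size, use the library total times a TMM factor and serve to compare 1 gene across lines. FPKM, the authors' value that also divides by gene length, serves to compare genes. Ranges, gaps and differences between lines are on the scale of log2(CPM + 0.5).

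The table holds genes selected for a difference between the genotypes in these same libraries, at an adjusted p under 0.05. Each member is therefore in the table because its genotypes differed, and the differences below describe these genes without testing them anew. The p-values are adjusted over the 4268 genes of the table that passed the filter, which makes them smaller than an adjustment over every expressed gene would.

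As background, complexes I to IV of the respiratory chain pass electrons from NADH and succinate to oxygen, complexes I, III and IV pump protons, and ATP synthase uses the proton gradient to make ATP. Most of their subunits are encoded in the nucleus, made in the cytosol and drawn in through the TOM and TIM complexes, while a few are encoded in mitochondrial DNA and made by the mitochondrial ribosome. Carriers of the Slc25 family move nucleotides, amino acids, iron, cofactors and phosphate across the inner membrane. Fatty acid oxidation, which begins with Cpt1a, delivers reduced electron carriers to this chain.

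Nuclear genes of the respiratory chain are known to share short promoter motifs, read by the factors NRF1, members of the ETS family such as GABP, and YY1. RefSeq promoters of GRCm38.p6, from 250 bases before to 50 after a start site, were given for 59 of the 68 members. The letters CCGGAAG (ETS-type), searched on both strands, stood in 22 of the 68 promoters of these 59 genes (32.4%), in 13% of the 3786 promoters of other listed protein-coding genes and in 8.86% of all 32851 promoters of the same length. The letters GCGCANGCG (NRF1-type), in which a match can be read on both strands at once, stood in 16.2%, 9.61% and 6.25% of them. The letters AANATGGC (YY1-type) stood in 13.2%, 6.37% and 6.05%. Every one of the motifs was thus more frequent among the members than among all promoters, by counts alone. Counted by gene instead of by promoter, an ETS-type match stood in 22 of the 59 members and in 443 of 2924 other listed protein-coding genes. By the same count, it stood in 19 of the 42 members lower in the L/L lines (45.2%). Among higher members 3 of 16 held it (18.8%). NRF1-type matches stood in 19% of the lower and 18.8% of the higher members with a promoter. Neither split by direction was counted over the other listed genes. The directions also differ in family, with carriers making up 9 of the 17 higher and 10 of the 50 lower members tested. A match is a run of letters and not a shown binding site, and no ETS-type match given here overlaps an NRF1-type match.

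The 4 members with both NRF1-type and ETS-type letters in 1 promoter were Atp5l, Mrpl17, Timm8b and Uqcr11. Their matches before the start site are shown with up to 8 bases on each side, 5′ to 3′ on the gene's strand and with the match in capitals, because they place the motif in a member of each of several complexes. Ndufs5 is added as the member that differed most between L/L lines. NRF1-type letters of Timm8b and Uqcr11 lie after the start site and are not shown.
Atp5l, NRF1-type, chr9:44920967-44920991, minus strand: accaataaCGCATGCGCatttcccc
Atp5l, ETS-type, chr9:44920940-44920962, minus strand: tcaccgatCTTCCGGaccaacat
Mrpl17, ETS-type, chr7:105811310-105811332, minus strand: tgctccgcCCGGAAGgcgcctcc
Mrpl17, NRF1-type, chr7:105811120-105811144, minus strand: gctctgatGCGCACGCGcaaacgcg
Mrpl17, NRF1-type, chr7:105811088-105811106, minus strand: gagttactGCGCATGCGtc
Timm8b, ETS-type, chr9:50603881-50603900, plus strand: agcgtgaaCCGGAAGgcagg
Uqcr11, ETS-type, chr10:80406873-80406895, minus strand: tctcctccCCGGAAGtagatgtc
Ndufs5, NRF1-type, chr4:123718268-123718292, minus strand: tgcttgctGCGCAGGCGcagacccg

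Across families, most members were lower in the L/L lines. Of the 67 members tested, 50 were lower and 17 higher, which is 74.6% lower, against 41.2% of the 3848 other protein-coding genes tested. The median log2 fold change was -0.62 for the members, 0.48 for the other protein-coding genes and 0.49 for all genes tested. All 4 L/L lines lay below both +/+ lines for 48 members, where the share over all genes tested was 38.2%, and above both for 9 members, where it was 35.1%. Without line KO_2768 these counts were 49 and 10, and without KO_4258 they were 50 and 10. With fewer lines the rule is easier to meet, so these counts are no check on the line left out. In bulk RNA, fewer cells of a type and less RNA per cell cannot be told apart. Without WT_8905, the L/L lines lay above the remaining +/+ line for 14 members.

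The lower members ran from 2.9% of the +/+ mean (Slc25a34) to 76.7% (Slc25a46). The table was chosen on this contrast, which can leave out genes nearer to the controls. The split that follows was not counted over the other lower genes. Of the 50, 31 lay between 60% and 80% of the +/+ mean, 16 between 40% and 60% and 3 under 40%. The median range of the L/L lines was 0.48 on the log2 scale for lower members and 0.97 for higher members, against 0.63 and 1.14 over all lower and higher genes tested. In comparison, the +/+ lines differed from each other by a median of 0.42. WT_5257 was the higher of the controls in 43 of the 50 lower members (86%), against 67% of other lower protein-coding genes. For 13 of the 48 members that lay below both controls in all lines, the gap between the genotypes was wider than the difference between the control lines (27.1%), against 877 of 1629 over all genes tested (53.8%). Of the 9 members above both controls in all lines this held for 1 (11.1%), Slc25a30, against 736 of 1496 genes (49.2%).

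**Figure D1:**
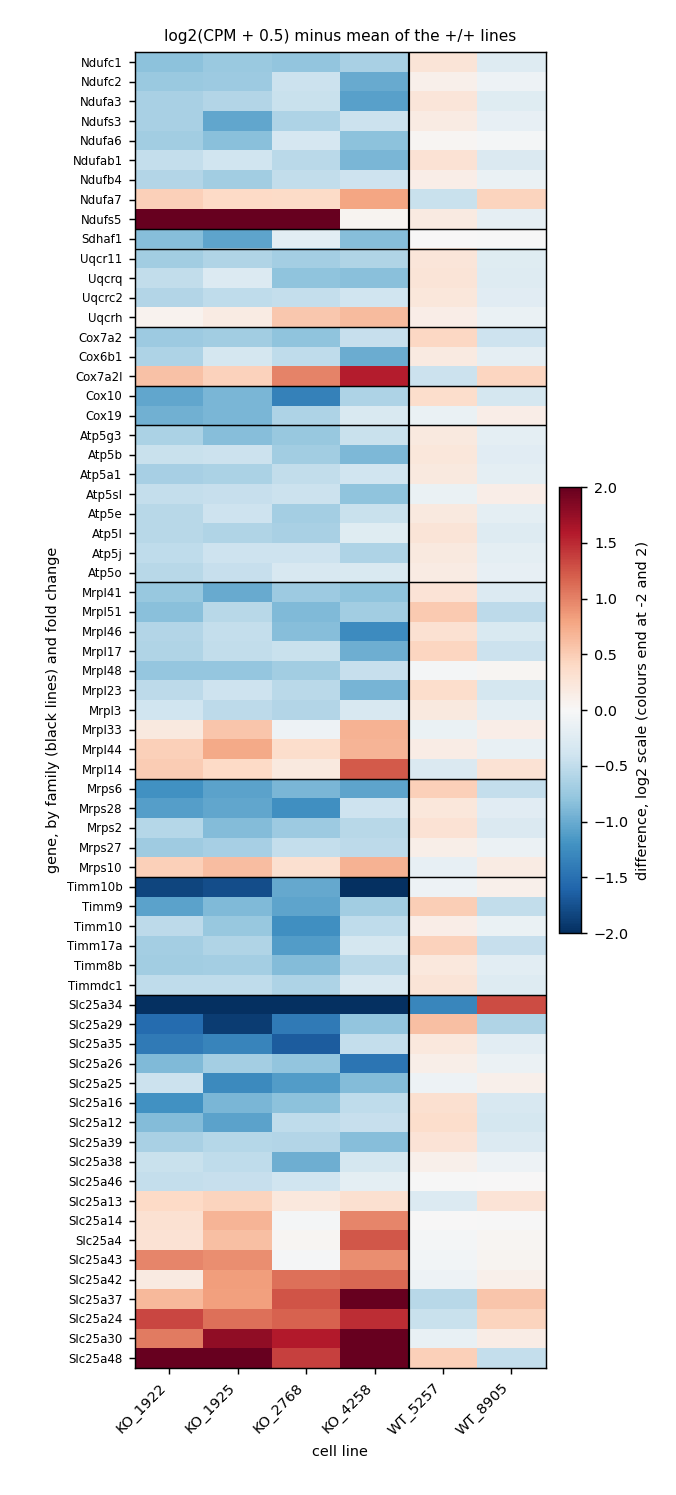
Each row is 1 of the 67 members tested, grouped by family between black lines, and each column a cell line. Colour gives log2(CPM + 0.5) minus the mean of the +/+ lines, blue for lower and red for higher. The L/L columns are blue for most rows, the red rows are concentrated among the carriers at the bottom, and Ndufs5 is red in 3 of the 4 L/L lines.

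In edgeR's quasi-likelihood test by line, with Benjamini-Hochberg adjustment over the genes of the table, 1 of the 67 members was called higher at an adjusted p under 0.05 and 0 were called lower. Over all genes tested, 1.66% were called higher and 3.47% lower. At an unadjusted p under 0.05, 4 members were higher and 40 lower, against 21.5% and 29% of all genes tested. DESeq2 on the same line sums called 4 members higher and 44 lower, where it called 22.2% and 33% of the table. With each library as a separate sample, edgeR called 13 higher and 50 lower, against 47.5% and 42.6%. The libraries of a line come from the same tumor, so that fit counts them as if they were separate tumors. The table was chosen on this contrast, so nothing about the members is read from these shares.

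**Figure D2:**
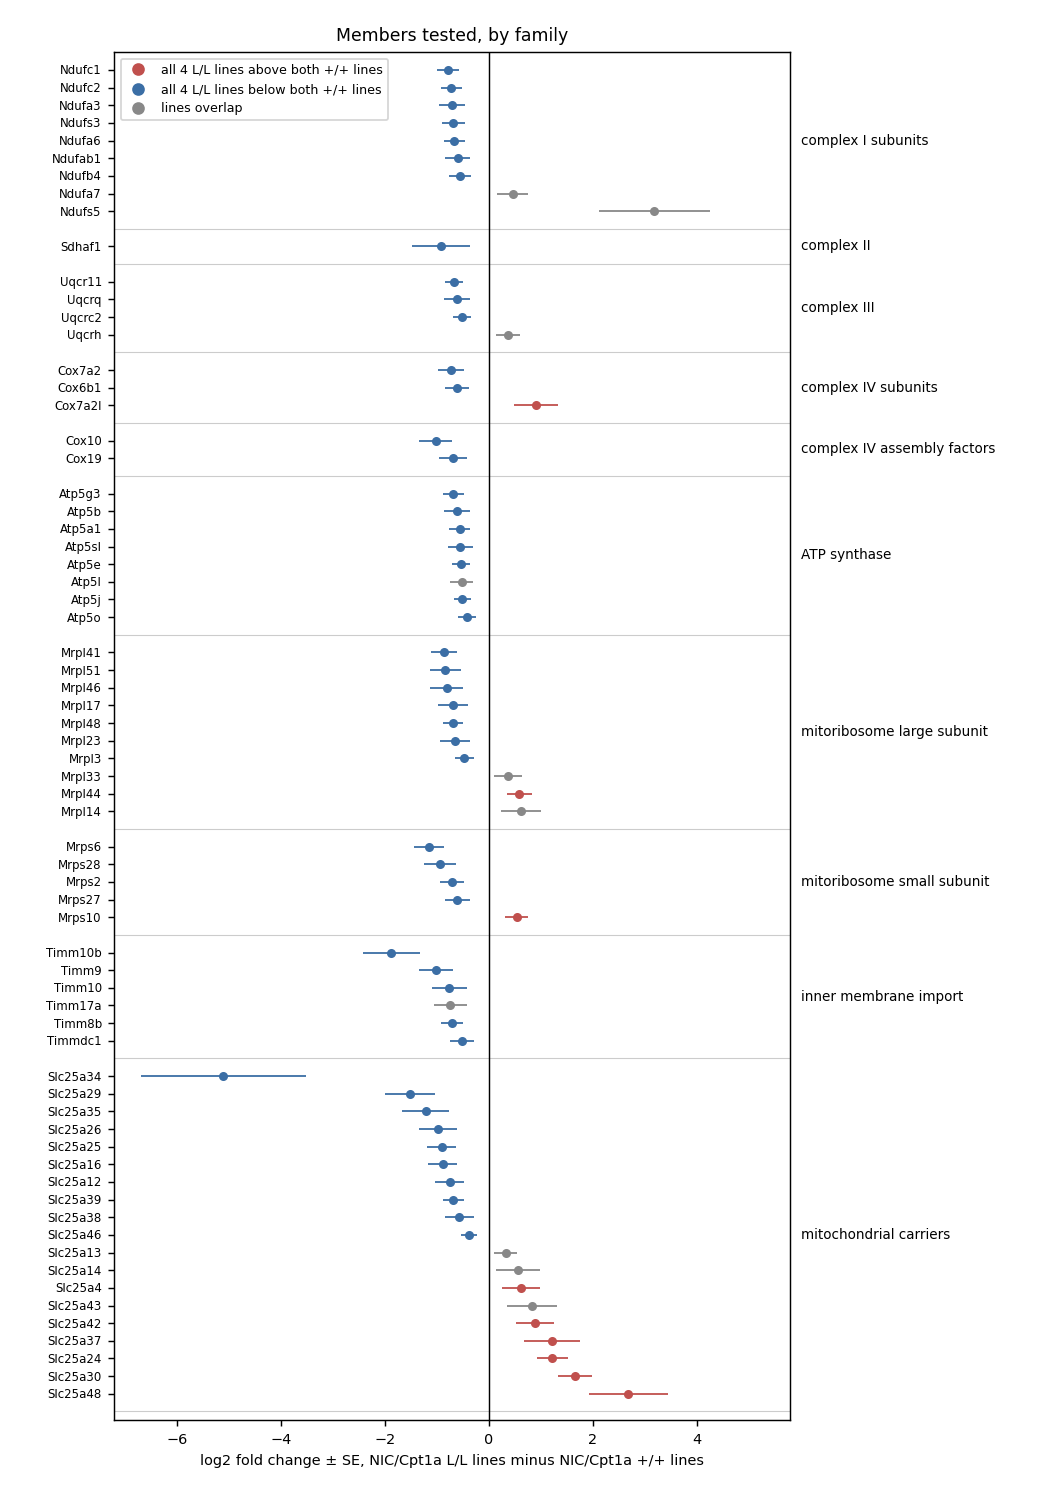
Each point is the log2 fold change of 1 member, L/L lines minus +/+ lines, with its SE as a bar, grouped by family. Blue points have all 4 L/L lines below both +/+ lines, red points have them above both and grey points overlap. ATP synthase and inner membrane import hold no member above 0, while the carriers run from -5.11 for Slc25a34 to 2.68 for Slc25a48.

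Complex I, the NADH dehydrogenase, was represented by 9 of 38 annotated subunit genes, of which 7 were lower with all L/L lines below both controls. The lowest was Ndufc1, an accessory subunit of the membrane arm, with 27.2, 28.6, 27.8 and 30.5 CPM against 58.02 and 40.2 CPM in the controls. Its L/L lines spanned only 0.16 on the log2 scale, and its log2 fold change was -0.78 ± 0.21 (SE). Ndufc2, its partner in the membrane arm, had L/L values of 53.5, 54.05, 66.9 and 44.7 CPM and +/+ values of 97.2 and 83.7 CPM, a log2 fold change of -0.72 ± 0.20 (SE). Ndufa3, another accessory subunit, had 34.1, 35.8, 39.3 and 25.1 CPM in the L/L lines and 63.96 and 45.4 CPM in the +/+ lines, with a log2 fold change of -0.70 ± 0.25 (SE). In all of these the lowest control, WT_8905, stayed above the highest L/L line.

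Ndufs3, a core subunit of the electron-transferring arm, was at 62.4% of the control mean. The accessory subunit Ndufa6 was at 63.2% and the mitochondrial acyl carrier protein Ndufab1 at 65.9%. Ndufb4 was at 67.8%. A further accessory subunit, Ndufa7, went the other way, with 59.1, 55.7, 55.3 and 73.5 CPM against 30.7 and 58.04 CPM in the controls. Its groups overlapped, because WT_8905 lay inside the range of the L/L lines. None of the 8 annotated genes for complex I assembly factors named Ndufaf stands in the table.

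Ndufs5, an accessory subunit of complex I on the side of the intermembrane space (chr4:123712710-123718202, minus strand, GRCm38), was the exception in its family. It had 562 and 490 reads in the KO_1922 libraries, 634 and 562 in KO_1925, 745 in KO_2768, 45 and 64 in KO_4258, 32 and 56 in WT_5257, and 32 and 34 in WT_8905. That gives L/L values of 25.5, 31.2, 28.9 and 2.51 CPM and +/+ values of 2.78 and 2.06 CPM. KO_1922, KO_1925 and KO_2768 were thus about an order of magnitude above both controls, and KO_4258 lay between the controls. The log2 fold change was 3.19 ± 1.07 (SE), and 3.57 without KO_4258, where edgeR's test by line called it higher. With all lines its adjusted p was 0.0809 (edgeR). The longest annotated transcript of Ndufs5 matches the pseudogene BC002163 over 319 bases at 99.4% identity, so reads of the gene and of this copy may not be told apart.

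**Figure D3:**
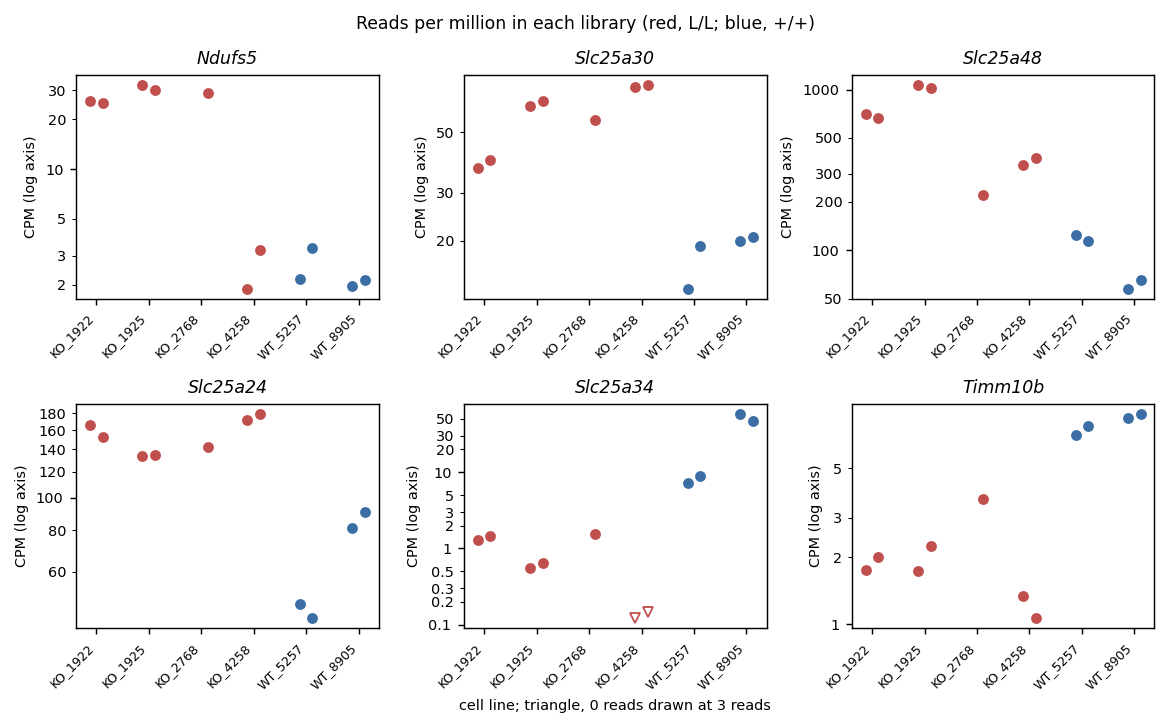
CPM on a log axis in each library of the 6 lines for 6 members, red for L/L and blue for +/+, with the duplicates of a line side by side. A triangle marks a library with 0 reads, drawn at 3 reads. Duplicates differ most for Ndufs5, by up to 0.65 on the scale of log2(CPM + 0.5), and for Slc25a30, by up to 0.50. KO_4258 joins the controls for Ndufs5, and Slc25a34 has 0 reads in both KO_4258 libraries.

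Complex II was represented by its assembly factor Sdhaf1 alone, of 8 annotated genes, and none of the catalytic subunits Sdha to Sdhd stands in the table. Sdhaf1, which helps insert the iron-sulfur clusters of succinate dehydrogenase, was weakly expressed, with 1.04, 0.835, 1.899 and 1.03 CPM in the L/L lines and 2.304 and 2.25 CPM in the +/+ lines, from 11 to 49 reads per library. All L/L lines lay below both controls, and the log2 fold change was -0.92 ± 0.56 (SE). Its exons overlap those of E130208F15Rik on the opposite strand over 1733 bases, and counting is not stated to use strand, so the reads cannot be assigned to 1 of them.

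Complex III, the cytochrome bc1 complex, had 4 of 11 annotated genes in the table. Uqcr11, a small subunit, had 63.9, 68.3, 64.6 and 68.3 CPM against 123 and 87.9 CPM in the controls, and its L/L lines differed by only 0.09 on the log2 scale. The core subunit Uqcrc2 had L/L values of 129.6, 137, 141 and 148 CPM and +/+ values of 228 and 167 CPM. Uqcrq, also called the ubiquinone-binding protein, had 114, 133, 91.7 and 90.3 CPM in the L/L lines and 193 and 135 CPM in the +/+ lines. Their log2 fold changes were -0.67 ± 0.18 (SE), -0.51 ± 0.18 (SE) and -0.61 ± 0.24 (SE), and for Uqcrq the gap between KO_1925 and WT_8905 was only 0.02. Uqcrh, the hinge protein that contacts cytochrome c1, was higher in part of the lines, with 67.3, 71.6, 93.1 and 99.5 CPM against 69.8 and 58.5 CPM in the controls. KO_1922 lay between the controls, so the groups overlapped, and the log2 fold change of 0.37 ± 0.23 (SE) was 0.24 without KO_2768.

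Complex IV, cytochrome c oxidase, had 4 of 18 annotated subunit genes in the table. Cox6b1 and Cox7a2, the broadly expressed forms of their subunits, were at 65.4% and 60.5% of the control mean. Cox6b1 had L/L values of 270.0, 319, 282 and 193 FPKM and +/+ values of 438 and 338 FPKM, among the highest levels per length of any member. Cox7a2 had 111, 110.5, 102 and 124 FPKM in the L/L lines and 226 and 127 FPKM in the +/+ lines, and KO_4258 and WT_8905 were close. Cox7a2l, which resembles Cox7a2 and helps join complexes III and IV into supercomplexes, was higher instead, with 87.3, 77.2, 111 and 159 FPKM against 39.8 and 71.6 FPKM in the controls. Its log2 fold change was 0.91 ± 0.42 (SE), the L/L lines ranged over 1.11 on the log2 scale, and KO_1925 exceeded WT_8905 by 0.03. This fold change was 0.45 without WT_5257 and 1.41 without WT_8905, and that of Cox7a2 moved from -0.72 ± 0.26 (SE) to -0.35 without WT_5257. Cox6b2, the testis form of Cox6b, did not pass the filter and had at most 9 reads in any library and 0 in the +/+ libraries.

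Both listed genes of complex IV assembly, of 9 annotated, were lower. Cox10, which makes the heme A precursor of the oxidase, had L/L values of 15.1, 16.5, 12.1 and 20.5 CPM and +/+ values of 40.5 and 24.8 CPM, a log2 fold change of -1.02 ± 0.32 (SE). Cox19, which takes part in copper delivery to the oxidase, had 17.3, 17.9, 21.97 and 27.5 CPM in the L/L lines and 31.2 and 37.3 CPM in the +/+ lines, a log2 fold change of -0.70 ± 0.27 (SE). For Cox19, WT_8905 was the higher control, unlike most lower members.

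ATP synthase was the most uniform of the larger families. All 8 listed genes of 18 annotated were lower, and for 7 of them all L/L lines lay below both controls. Atp5b, the catalytic beta subunit, had the highest level per length of all members, 613 ± 108 FPKM (SD, n = 4) in the L/L lines and 897 ± 202 FPKM (SD, n = 2) in the +/+ lines. Atp5a1, the alpha subunit, had 271 ± 16.5 FPKM (SD, n = 4) in the L/L lines and 384 ± 74.7 FPKM (SD, n = 2) in the +/+ lines. Their log2 fold changes were -0.62 ± 0.25 (SE) and -0.56 ± 0.20 (SE). The lowest value was that of Atp5g3, a gene for the membrane ring subunit c, with 233, 194, 207 and 246 FPKM against 383 and 292 FPKM in the controls and a log2 fold change of -0.68 ± 0.19 (SE).

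The remaining ATP synthase genes lay close together. Atp5e (epsilon subunit) was at 68.99% of the control mean, Atp5j (coupling factor F6) at 70.4% and Atp5o (the stalk subunit OSCP) at 74.9%. Atp5l (subunit g) was at 69.5% and was the member whose lines overlapped, with 90.1 CPM in KO_4258 and 89.0 CPM in WT_8905. Atp5sl was at 68.2%. It is also called Dmac2 and is known for a role in complex I assembly rather than as a part of ATP synthase. Atp5l matches 9 pseudogenes at 95% identity or more over at least 100 bases, and Atp5j shares 397 exonic bases with Gabpa on the opposite strand.

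Of the large subunit of the mitochondrial ribosome, 10 of 49 annotated genes were listed, 7 lower and 3 higher. Mrpl41 had L/L values of 19.9, 16.7, 20.6 and 19.4 CPM and +/+ values of 41.4 and 28.3 CPM, and the highest L/L line stayed 0.45 below WT_8905 on the log2 scale. Mrpl51 had 52.3, 63.9, 50.5 and 57.8 CPM in the L/L lines and 135 and 65.4 CPM in the +/+ lines, where WT_8905 lay only 0.03 above KO_1925. Mrpl46 had 20.7, 22.6, 17.2 and 12.9 CPM against 38.99 and 25.5 CPM in the controls. Their log2 fold changes were -0.86 ± 0.24 (SE), -0.84 ± 0.30 (SE) and -0.81 ± 0.32 (SE). The value of Mrpl51 was -0.32 without WT_5257 and -1.26 without WT_8905.

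Mrpl48 was at 62.4% of the control mean, Mrpl17 at 62.4%, Mrpl23 at 63.9% and Mrpl3 at 72.2%. All of these had their L/L lines below both controls. Mrpl44, which has the fold of a ribonuclease, was higher in every L/L line, with L/L values of 25.9, 31.7, 23.8 and 29.9 CPM and +/+ values of 20.4 and 16.7 CPM and a log2 fold change of 0.58 ± 0.24 (SE). Mrpl14 had 29.99, 27.7, 23.9 and 49.5 CPM in the L/L lines and 17.01 and 25.5 CPM in the +/+ lines, with KO_2768 under WT_8905 and KO_4258 highest. Its log2 fold change of 0.62 ± 0.38 (SE) was 0.36 without KO_4258, 0.27 without WT_5257 and 0.95 without WT_8905. Mrpl33 had 95.9, 124, 78.7 and 136 CPM against 76.6 and 92.2 CPM in the controls, with KO_2768 between the controls.

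Of the small ribosomal subunit, 5 of 29 annotated genes were listed, 4 lower and 1 higher. Mrps6 was lowest, with L/L values of 25.8, 28.5, 31.7 and 28.7 CPM and +/+ values of 83.8 and 43.4 CPM and a log2 fold change of -1.15 ± 0.28 (SE). Its L/L lines agreed within 0.29 on the log2 scale while its controls differed by 0.94. Without WT_5257 its log2 fold change was -0.69, and without WT_8905 it was -1.54. Mrps6 shares 305 exonic bases with the annotated gene Gm49711 and 159 with Slc5a3, both on the same strand. The log2 fold change of Slc5a3 was -1.64. Part of the reads of Mrps6 may not be separable from those of these genes. Mrps28 had 18.1, 19.03, 16.7 and 29.4 CPM in the L/L lines and 46.1 and 33.9 CPM in the +/+ lines. KO_4258 was the highest L/L line there. Mrps2 had 32.9, 26.7, 29.6 and 33.1 CPM against 60.01 and 40.1 CPM in the controls. Mrps27 was at 65.6% of the control mean. Mrps10 was higher in every L/L line, with L/L values of 34.4, 38, 30.6 and 39.8 CPM and +/+ values of 21.7 and 27.6 CPM and a log2 fold change of 0.53 ± 0.22 (SE), or 0.27 without WT_5257.

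All 6 listed genes of inner membrane import, of 16 annotated, were lower, and none of the 10 annotated Tomm genes of the outer membrane stands in the table. The small Tim proteins guide hydrophobic precursors through the intermembrane space, and 4 of them were listed. Timm10b had 38 and 39 reads in KO_1922, 34 and 42 in KO_1925, 94 in KO_2768, 32 and 21 in KO_4258, 104 and 130 in WT_5257, and 136 and 138 in WT_8905. This gives 1.87, 1.98, 3.64 and 1.22 CPM in the L/L lines and 7.39 and 8.56 CPM in the +/+ lines, with a log2 fold change of -1.87 ± 0.54 (SE), the lowest outside the carriers. Its groups were separated by 0.93, more than its controls differed. Its exons overlap Arfip2, on the opposite strand, and the annotated gene Gm45799, on the same strand.

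Timm9 had 13.5, 15.4, 13.6 and 17.6 CPM against 40.5 and 20.4 CPM in the controls, a log2 fold change of -1.02 ± 0.33 (SE). Its value was -0.53 without WT_5257 and -1.42 without WT_8905. Timm10, which forms a chaperone ring with Timm9, had L/L values of 13.1, 11.04, 7.79 and 13.2 CPM and +/+ values of 20.9 and 17.2 CPM, a log2 fold change of -0.76 ± 0.33 (SE). Timm8b was at 60.95% of the control mean. Timm17a, a part of the TIM23 import channel, was at 59.9%, with 113 CPM in KO_4258 and 104 CPM in WT_8905, so its lines overlapped. Timmdc1, known as a complex I assembly factor despite its name, was at 69.96%.

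The carriers were the family that split. Of 47 annotated Slc25a genes, 19 were listed, 10 lower and 9 higher, with a median log2 fold change of -0.38. The 48 members outside the carriers held 40 lower and 8 higher, with a median of -0.65. Of the 3848 other protein-coding genes tested, 41.2% were lower. All 10 lower carriers lay below both controls in all L/L lines, and 6 of the 9 higher ones lay above both. Over all genes tested, this held for 1629 of 1767 lower genes and 1496 of 2501 higher genes, so nothing particular to the carriers is read from these counts.

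Slc25a30 (also KMCP1; chr14:75761999-75787037, minus strand), a carrier related to the uncoupling proteins, was the member called by line. It had 801 and 772 reads in KO_1922, 1220 and 1213 in KO_1925, 1434 in KO_2768, 1748 and 1468 in KO_4258, 197 and 323 in WT_5257, and 325 and 326 in WT_8905. That gives 38.2, 63.5, 55.6 and 73.96 CPM in the L/L lines and 16.4 and 20.3 CPM in the +/+ lines, so the lowest L/L line stood 0.89 above the highest control on the log2 scale. It rose by a log2 fold change of 1.65 ± 0.32 (SE) in edgeR's quasi-likelihood test by line, adjusted p = 0.0479 over the genes of the table. The call was lost when any of KO_1922, KO_1925, KO_2768, WT_5257 or WT_8905 was left out, where the log2 fold change ranged from 1.41 to 1.82. Counting all 55450 annotated genes as tests, edgeR's adjusted p was 0.623.

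Slc25a48, a carrier known for mitochondrial choline uptake, had the largest difference among higher carriers. It had 685, 1046, 220.3 and 355 CPM against 119 and 61.6 CPM in the controls. It thus varied over 2.24 on the log2 scale among the L/L lines, highest in KO_1925 and lowest in KO_2768, and still stayed above both controls by 0.89. The log2 fold change was 2.68 ± 0.76 (SE), with an adjusted p of 0.0682 by edgeR. Its mean level per length was 175 ± 114 FPKM (SD, n = 4) in the L/L lines and 25.99 ± 11.7 FPKM (SD, n = 2) in the +/+ lines.

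Slc25a34, a carrier without an established substrate, was nearly absent from the L/L lines. It had 28 and 28 reads in KO_1922, 11 and 12 in KO_1925, 40 in KO_2768, 0 and 0 in KO_4258, 108 and 151 in WT_5257, and 943 and 733 in WT_8905. A count of 0 allows up to 3 reads, or 0.122 and 0.148 CPM in the KO_4258 libraries, for counting error only. The controls differed by 2.61 on the log2 scale, WT_8905 being the higher, and the gap between KO_2768 and WT_5257 was 2.08. The log2 fold change was -5.11 ± 1.59 (SE), and -3.21 without WT_8905. Slc25a35, another carrier without an established substrate, had L/L values of 6.09, 6.55, 5.04 and 12.1 CPM and +/+ values of 19.8 and 14.7 CPM, a log2 fold change of -1.21 ± 0.45 (SE). Slc25a35 shares 1151 exonic bases with Rangrf on the opposite strand.

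Slc25a29, which carries basic amino acids, had 8.74, 6.71, 9.65 and 15.2 CPM in the L/L lines and 40.3 and 17.3 CPM in the +/+ lines, a log2 fold change of -1.52 ± 0.47 (SE), or -0.87 without WT_5257. The mitochondrial S-adenosylmethionine carrier Slc25a26 was at 50.9% of the control mean. The glutathione carrier Slc25a39 had 103, 105, 104 and 83.1 FPKM against 180.1 and 123 FPKM in the controls, at 62.1% of the control CPM. Slc25a46, an outer membrane protein of mitochondrial dynamics, was nearest to the controls among the lower carriers, at 76.7%.

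Some related carriers lay on opposite sides, and the pairs that follow were set side by side after their values had been seen. Slc25a12 and Slc25a13 both exchange aspartate for glutamate. Slc25a12 had L/L values of 9.72, 8.17, 12.1 and 11.96 FPKM and +/+ values of 21.02 and 12.9 FPKM, and Slc25a13 had 17.96, 18.2, 15.3 and 15.9 FPKM in the L/L lines and 10.5 and 15.3 FPKM in the +/+ lines. Per length, Slc25a13 was the higher of the pair in all 4 L/L lines and in WT_8905, and Slc25a12 in WT_5257. The log2 fold changes were -0.75 ± 0.28 (SE) for Slc25a12 and 0.32 ± 0.22 (SE) for Slc25a13, whose lines overlapped.

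Slc25a24 and Slc25a25 both exchange ATP-Mg for phosphate in response to calcium. Slc25a24 (chr3:109123149-109168457) had 48.7, 40.1, 42.3 and 49.6 FPKM against 12.98 and 24.3 FPKM in the controls, and Slc25a25 had L/L values of 11.98, 6.497, 7.13 and 8.22 FPKM and +/+ values of 14 and 16.2 FPKM. In the L/L lines Slc25a24 was several-fold above Slc25a25 per length, whereas in WT_5257 the levels were about equal. The log2 fold changes were 1.22 ± 0.30 (SE) and -0.90 ± 0.28 (SE). For Slc25a24 the value was 0.74 without WT_5257 and 1.75 without WT_8905.

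Slc25a42 and Slc25a16 have both been tied to coenzyme A. Slc25a42, which carries it into the matrix, had 3.57, 5.54, 6.71 and 6.52 FPKM in the L/L lines and 2.69 and 3.12 FPKM in the +/+ lines, and Slc25a16 had 8.47, 10.2, 10.8 and 12.96 FPKM against 23.02 and 14.7 FPKM in the controls. The log2 fold changes were 0.89 ± 0.37 (SE) and -0.89 ± 0.28 (SE), and Slc25a16 remained the more abundant per length in every line. Slc25a37 and Slc25a38 serve heme synthesis, Slc25a37 (mitoferrin-1) by carrying iron and Slc25a38 by carrying glycine. Slc25a37 had L/L values of 13.6, 14.9, 20.2 and 33.5 FPKM and +/+ values of 5.36 and 11.8 FPKM, and Slc25a38 had 10.3, 9.53, 6.796 and 10.1 FPKM in the L/L lines and 13.9 and 12.1 FPKM in the +/+ lines. Slc25a37 was highest in KO_4258, and KO_1922 exceeded WT_8905 by only 0.09 on the log2 scale of CPM.

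**Figure D4:**
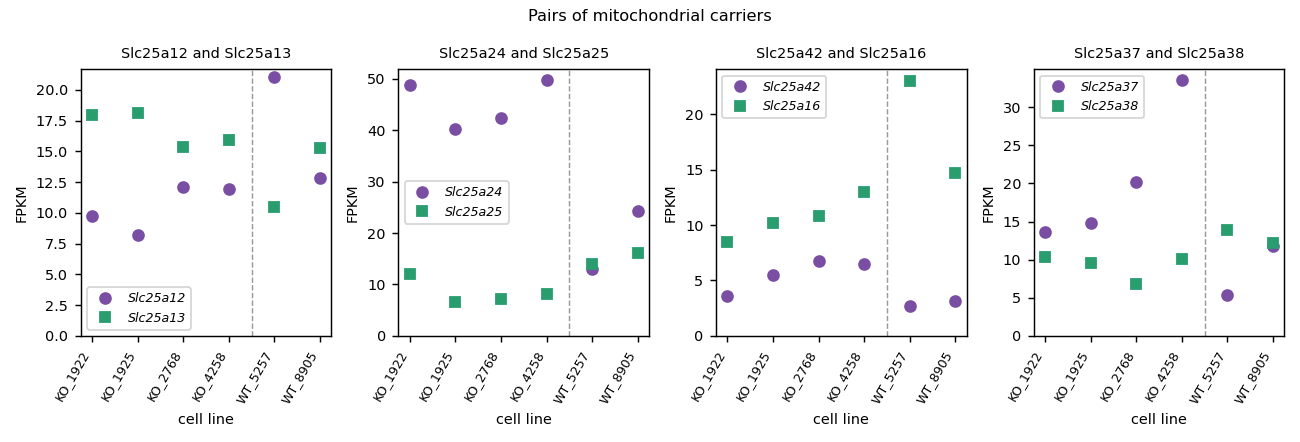
FPKM of 4 pairs of carriers in each of the 6 lines, with L/L lines to the left of the dashed line and +/+ lines to the right. Within each pair, the mean over the L/L lines is above the mean over the +/+ lines for 1 gene and below it for the other, and Slc25a24 and Slc25a25 lie farthest apart in the L/L lines.

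The other higher carriers were Slc25a4, Slc25a14 and Slc25a43. Slc25a4 (ANT1), an ADP/ATP exchanger, was the most abundant of them, with 191, 230.0, 156 and 342 FPKM against 140.1 and 148 FPKM in the controls. KO_2768 lay at the level of WT_8905, 295 against 294 CPM, and KO_4258 was highest. Slc25a14, a further relative of the uncoupling proteins, and Slc25a43, both on the X chromosome, were at 148% and 178% of the control mean with overlapping lines. KO_4258 was the highest L/L line in 12 of the 17 higher members and the lowest in 15 of the 50 lower members. The same shares over all genes of the table were not computed.

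The members' directions were also read by chromosome, where 74.6% of all members tested were lower. All 12 tested on chromosome 7 were lower, as were all 8 on chromosome 2, all 5 on 9, all 5 on 16 and all 4 on 11. All 4 on chromosome 17 (Cox7a2l, Mrpl14, Mrps10 and Ndufa7) were higher. The chromosomes named so far are those with at least 4 members tested. Of those with fewer, 8, 14 and X held higher members only, 2 each. Chromosomes 10, 12, 15 and 18 held lower members only, with 3, 2, 1 and 2 tested. On chromosomes 1, 3, 4, 5, 6 and 13, which held 15 members, members lay in both directions. Of the other listed protein-coding genes, 88.6% on chromosome 17 were higher, and 56.9% on chromosome 7, 53.4% on 2, 59% on 9, 57.6% on 16 and 35.7% on 11 were lower. On chromosome 11 the members (Cox10, Slc25a35, Slc25a39 and Uqcrq) thus lay opposite to the median of the other genes, 0.67.

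**Figure D5:**
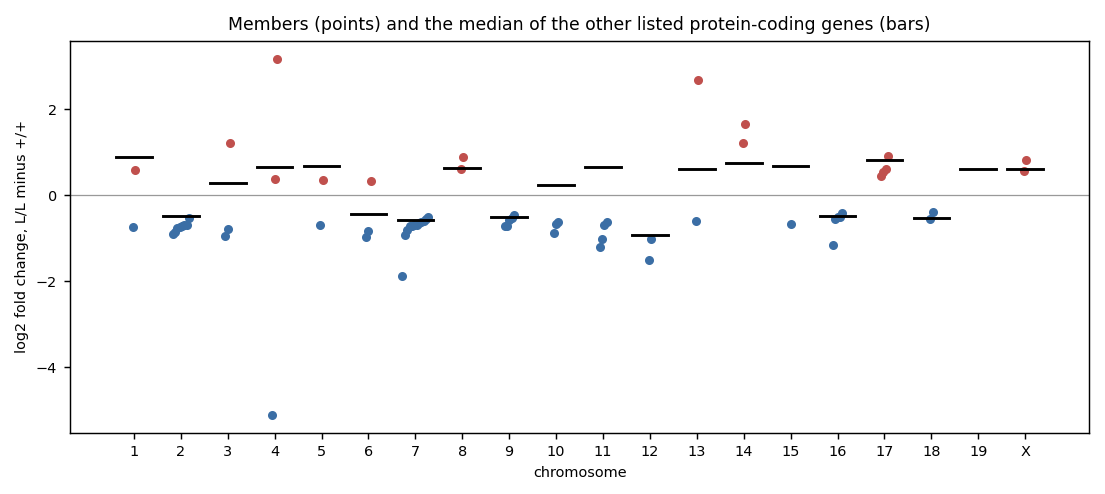
Log2 fold change of each member tested (points, red above 0 and blue below) by chromosome, with a bar at the median of the other listed protein-coding genes of that chromosome. Among chromosomes with at least 4 members, all points lie above 0 on chromosome 17 and below 0 on chromosomes 2, 7, 9, 11 and 16.

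Genes of related mitochondrial pathways were read from lists of known members. Of 13 genes encoded in mitochondrial DNA 2 were listed, a subunit each of complexes I and III. mt-Nd5 had L/L values of 775, 665, 806 and 552 CPM and +/+ values of 970.5 and 1201 CPM. mt-Cytb had 740.4, 567, 1112 and 1272 CPM in the L/L lines and 1641 and 2213 CPM in the +/+ lines. Both were below the controls in all L/L lines. Of 20 genes of mitochondrial biogenesis and transcription 3 were listed, the coactivator Ppargc1a, the mitochondrial RNA polymerase Polrmt and the factor Yy1, all below the controls in all L/L lines. Ppargc1a had 11.02, 8.51, 19.5 and 19.2 CPM against 33.4 and 43.2 CPM in the controls. The log2 fold changes were -1.39 ± 0.41 (SE), -0.59 ± 0.17 (SE) and -0.67 ± 0.22 (SE) in that order, and none was called.

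Of 27 genes of the tricarboxylic acid cycle and pyruvate entry 7 were listed, 3 higher and 4 lower. Pdk3, a kinase that inhibits pyruvate dehydrogenase, was called higher by edgeR, with L/L values of 28.6, 34.3, 36.7 and 40.9 CPM and +/+ values of 9.25 and 11.4 CPM and an adjusted p of 0.0357. Its relative Pdk2 had 12.02, 9.53, 31.2 and 29.6 CPM in the L/L lines and 66.9 and 48.7 CPM in the +/+ lines. Of 21 genes of electron carriers and coenzyme Q synthesis 4 were listed, 3 lower (Coq6, Coq7 and Coq10a) and Gpd2 higher. Of 15 genes of mitochondrial dynamics 3 were listed, Mfn2 and Mff higher and Mtfp1 lower, and of 17 chaperones and proteases 1, Lonp1, higher. Of 16 genes of fatty acid entry and beta-oxidation 4 were listed, 3 higher (Cpt2, Acadl and Eci1) and Echs1 lower. None of these lists but that of Pdk3 held a called gene.

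Some markers of cell types differed between the genotypes in every line, and others were high in single lines. Of 9 luminal epithelial markers 2 were listed (Elf5 and Muc1), with a summed level of 18.3 to 146 CPM in the L/L lines and 299 to 326 CPM in the +/+ lines. Of 6 basal epithelial markers 2 were listed (Krt17 and Acta2), at 1.22 to 11.6 and 0 to 0.125 CPM. Elf5 lay below both controls in all 4 L/L lines and Krt17 above both, while the lines overlapped for Muc1 and Acta2. The differences of Elf5 and Krt17 go with the genotype, so leaving out 1 L/L line does not remove them. Of 8 fibroblast markers 4 were listed (Col1a2, Pdgfrb, Dcn and Thy1), at 0 to 1393 and 0 to 0.0937 CPM, and the top was Dcn in KO_2768, with all 4 at 0 in KO_4258. Of 10 leukocyte markers Csf1r alone was listed, at 0.0775 to 312 and 0.0316 to 0.437 CPM, highest in KO_4258, and 0 of 6 endothelial markers stood in the table. The part of these differences in the members' values was not tested. The counts of members without KO_2768 and without KO_4258, given above, do not test it, since fewer lines make that rule easier to meet.

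Exons of 26 members overlap those of another annotated gene, and 21 members match another gene at 95% identity or more over at least 100 bases, 16 of them a pseudogene. Values of these members are uncertain to the extent that counting split such reads. The largest difference between the duplicates of a line had a median of 0.16 over the members, on the log2 scale. It exceeded 0.5 in 3 members, Sdhaf1, Ndufs5 and Slc25a30. With 2 control lines, each value of the +/+ group rests on 2 tumors.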

How the data were processed

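RNA from 6 tumor-derived cell lines (11 libraries) was analyzed. The authors aligned reads to mm10 with STAR and counted reads per gene with HTSeq; the submitters' processing notes also name Trimmomatic, edgeR and limma, with no versions given in the sources used here. The deposited table gives whole-number read counts, a normalized signal (counts divided by 1 size factor per library, deposited by the authors) and FPKM deposited by the authors, beside columns of their own genotype comparison (fold changes with raw and adjusted p), which were not used.

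The listed genes held 33.3% to 34.6% of the reads, so library totals were recovered from counts, lengths and FPKM (genes with at least 1000 reads). Duplicates were summed by line, filtered with filterByExpr (4268 genes), scaled by TMM (factors 0.969 to 1.05) and tested with edgeR 4.0.16 (glmQLFit, glmQLFTest; prior degrees of freedom 1.91) in R 4.3.3, with limma 3.58.1 and Benjamini-Hochberg adjustment over the genes tested. The number of lines limits the precision, and floors of 3 reads cover counting error only. Alternatives covered DESeq2 1.42.0, the sample unit, the replicate number, scaling, filter, threshold, number of tests and each line left out. The functions were tested on simulated data. Matches to other transcripts used BLAST 2.17.0+ on GENCODE vM21, and plots matplotlib 3.10.9 in Python 3.11.15.

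The 35 named genes were, per family, up to 3 members with the largest difference in each direction among those with all L/L lines on 1 side and a mean FPKM of at least 1, the called members, the member varying most among L/L lines, and every member of families of 3 or fewer. The members, families and lists were chosen with earlier results of these data known.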

Additional observations from a re-analysis of the deposited data

Results flagged for a closer look

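Among the 35 named genes, 1 L/L line stood apart from the other 3 by Dixon's criterion for 4 samples. For Ndufs5, an accessory subunit of complex I, line KO_4258 had 2.51 CPM against 25.5, 31.2 and 28.9 CPM in the other L/L lines, and its gap to the nearest of them took 0.916 of the whole range on the log2 scale. Both KO_4258 libraries were low, with 45 and 64 reads, as were the +/+ libraries. Chance flags about 1 in 20 groups taken without regard to their spread, but Ndufs5 was named for the widest range among the L/L lines in its family, so that rate does not apply to it. The difference of KO_4258 was not tested further.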

How the results depend on the processing

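No named gene turned its direction under any alternative run, and between 73.5% and 76.5% of members were lower. Of the single-gene values, 6 lost their call (all Slc25a30) and 102 gained one. Members called higher and lower by line were 1 and 0. They were 4 and 44 with DESeq2, 13 and 50 with each library as a sample, 5 and 41 at an adjusted p threshold of 0.1, 0 and 0 with the first library of each line, 1 and 1 with the second, and 0 and 0 counting every annotated gene as a test. Leaving out each line in turn gave 0 to 2 higher and 0 to 3 lower. Members above both controls were 9, 4 with each library as a sample, 15 with the authors' size factors and 7 to 14 with a line left out.

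Scaling moved the median of all genes by -0.12 (DESeq2 size factors) to 0.10 (the authors' size factors), and by -0.16 without WT_5257. The median log2 fold change of all members moved to -0.76 with DESeq2 or its size factors, -0.52 with the authors' size factors, -0.55 without TMM and -0.77 to -0.46 with a line left out. Medians under DESeq2, DESeq2 size factors and the authors' size factors were -0.70, -0.70 and -0.47 for complex III and -0.67, -0.67 and -0.45 for ATP synthase, and -0.85 under both of the former for the small ribosomal subunit. ATP synthase had -0.48 without TMM. Without the filter on low counts the medians were -0.63 for complex III, -0.61 for ATP synthase and 0.0773 for complex IV subunits, where Cox6b2 joined the other 3 genes, whose median was -0.68. With a line left out, medians ranged from -0.78 to -0.40 for complex III, -0.71 to 0.32 for complex IV subunits (where Cox6b2 also joined without either +/+ line, and the other 3 genes gave -0.78 to -0.35), -0.72 to -0.43 for ATP synthase, -0.80 to -0.33 and -0.97 to -0.58 for the large and small ribosomal subunits and -1.01 to -0.56 for inner membrane import. The causes of the other shifts were not tested. Of the named genes, 9 moved by over 1.5 times without WT_5257, 4 without WT_8905 and 1 each without KO_2768 and KO_4258.

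The first and second libraries share replicate numbers across lines, and the differences between them correlated by -0.08 to 0.04 over 10 pairs of lines. These values show no pairing by number but cannot exclude it, since counting error between duplicates lowers such correlations. With the replicate block, edgeR by library called 12 higher and 50 lower, and 4 members lay above both controls. Depth bears most on the 8 members with under 100 reads in at least 1 library.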
